A study of Mus musculus with 12 samples.

Results

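The genes described here serve the burning of fatty acids, the making and handling of ketone bodies, and the PPAR transcription factors that are known to drive both. They are 37 genes chosen by name for what their products do, and each gene was read from every probe whose accession maps to its symbol. All 37 were on the array, through 49 probes. Of these genes, 35 lay well above background on all 12 arrays and were tested among 24245 genes, and 0 of them passed the test in any of 5 comparisons. The other two, Cd36 and Pdk4, were too dim to test.

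RNA came from colonic organoids, made by embedding colon crypts in Matrigel and growing them under conditions that favour stem cells. The donors were C57BL/6 mice, 3 of them wild type and 3 lacking Vdr (VDR KO). Vdr encodes the vitamin D receptor, and the ligand was calcitriol, 1,25(OH)2D3, the active hormone. The organoids of each mouse received either ethanol (EtOH) vehicle or calcitriol at 100 nM, renewed every 48 h, and each treatment was read on 1 array with 1 dye. This gave 4 groups of 3 arrays, wild type or knockout with vehicle or calcitriol. The duration is 72 h in the series' design and 62 h in the sample descriptions. In each genotype mice 1 and 3 were 2 months old and mouse 2 was 3 months old. Mouse 1 is labelled male and mice 2 and 3 female. The labels do not say which part of Vdr was deleted, and each organoid culture stands for 1 mouse.

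Long-chain fatty acids are activated to acyl-CoA, carried into mitochondria on carnitine, and cut down to acetyl-CoA in a repeated cycle of oxidation, hydration, oxidation and cleavage. The acetyl-CoA can enter the citric acid cycle or be turned into ketone bodies, and colon epithelium is known for oxidising short-chain fatty acids from bacteria and for making ketone bodies. PPARs are nuclear receptors that bind fatty acids and their derivatives, pair with RXR, and switch on many of these genes, with Pdk4, Angptl4, Plin2 and Cpt1a among the best known targets.

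PPAR with RXR is known to bind the half-site AGGTCA repeated in the same direction with 1 base between (DR1), and the vitamin D receptor with RXR the same half-site with 3 bases between (DR3). Promoter windows of 250 bases before to 50 after the start were read from RefSeq on GRCm38.p6 for 32 of the 37 genes and searched on both strands, allowing 2 mismatches over the 12 half-site letters. These genes have 36 windows, as some have more than 1. A DR1 match was found in 5 of the 36 windows, and in 3.86% of 32851 windows of all genes. The 5 are windows of Plin2, Cd36, Echs1, Etfa and Slc25a20. A DR3 match was found in 3 of the 36, in Etfdh, Cd36 and Cpt1a, and in 3.06% of all windows. The windows below are those of Ppard, the gene with the smallest p under calcitriol in wild type, and of a known PPAR target with each kind of match, with the match in capitals. Ppard lies at chr17:28232504-28232803 on the plus strand and holds neither match within the window. The Plin2 window, chr4:86670010-86670309 on the minus strand, holds a DR1 match on the opposite strand that starts at position -225 from the start site. In the Cpt1a window, chr19:3323051-3323350 on the plus strand, a DR3 match on the opposite strand starts at position -103. A match is a matter of letters only and says nothing of binding.
Ppard: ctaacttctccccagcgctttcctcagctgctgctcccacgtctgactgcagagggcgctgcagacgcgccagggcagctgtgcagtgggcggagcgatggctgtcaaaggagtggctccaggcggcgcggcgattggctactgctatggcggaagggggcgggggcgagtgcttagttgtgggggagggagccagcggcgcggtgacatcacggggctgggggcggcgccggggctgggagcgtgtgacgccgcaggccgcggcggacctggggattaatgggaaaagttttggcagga
Plin2: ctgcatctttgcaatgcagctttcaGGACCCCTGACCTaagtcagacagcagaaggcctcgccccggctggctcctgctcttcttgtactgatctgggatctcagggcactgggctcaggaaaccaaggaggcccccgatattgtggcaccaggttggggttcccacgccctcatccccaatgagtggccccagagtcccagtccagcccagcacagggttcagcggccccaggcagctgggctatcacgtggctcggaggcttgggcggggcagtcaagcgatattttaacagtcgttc
Cpt1a: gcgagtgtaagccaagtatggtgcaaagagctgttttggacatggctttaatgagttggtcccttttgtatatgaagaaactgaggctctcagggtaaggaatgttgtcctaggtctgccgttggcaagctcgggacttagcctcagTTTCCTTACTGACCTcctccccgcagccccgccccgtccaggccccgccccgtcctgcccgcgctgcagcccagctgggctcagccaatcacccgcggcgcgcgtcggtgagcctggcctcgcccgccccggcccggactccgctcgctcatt

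Levels are log2 of the processed signal minus the array's 75th percentile of it, so a level of 0 equals that percentile. Across arrays that percentile was 580.0 to 791.4 in signal units, and 55.0% to 66.4% of spots lay well above background on 11 arrays against 72.8% on the vehicle array of wild-type mouse 2. Vdr lay between 1.06 and 2.22 in wild type and between -0.22 and 0.61 in knockout, so the genotypes did not overlap, although the labels do not tell whether this probe lies in the deleted part. Cyp24a1, the hormone's best known target, lay between -7.24 and -3.91 in wild-type vehicle and between 5.81 and 6.67 with calcitriol. Ddx3y, a gene of the Y chromosome, was high on the 4 arrays of mouse number 2, labelled female, and near background on the other 8, so the sex labels of mice 1 and 2 are contradicted. All 8 epithelial markers were tested, with summed signals of 1080 to 1420 times the array's 75th percentile over the 12 arrays. Of 6 adipocyte markers 3 were tested, Fabp4, Cidec and Retn, with sums of 1.42 to 2.28, while Adipoq, Lep and Plin1 did not pass the filter. Of 6 fibroblast markers 2 passed, with sums of 0.0469 to 0.200, and of 5 muscle markers 2, with sums of 0.457 to 2.04. Immune cell markers were higher, with 7 of 8 passing and sums of 19.7 to 36.8. In such bulk samples fewer cells of a type and less RNA per cell cannot be told apart.

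Calcitriol against vehicle in wild-type organoids asks which of these genes respond to the hormone where its receptor is present. None of the 35 passed limma's moderated test with Benjamini-Hochberg adjustment at 0.05, where 0.157% of all genes tested were called. With the mouse as a block, since both arrays of a pair come from 1 animal, 0 of 35 were again called against 0.936% of all genes. The unadjusted p was under 0.05 for 2 of the 35 in either fit, beside 4.68% of all genes without the block and 9.95% with it. The differences were small: 29 of 35 lay within 0.25 of 0 on the log2 scale and all 35 within 0.5, against 63.8% and 82.2% of all genes. The 35 lay well above background on every array, while a gene entered the test if it did so throughout some group. The comparison with all genes was not matched for brightness, and the part of brightness in it was not tested. The median difference of the 35 was -0.06, with 14 genes above 0 and 21 below, and that of all genes was -0.03. Scaling to the array median put all 35 above 0, but it moved the median of all genes to 0.48. It shifts the difference of every gene by the same amount, so 16 of the 35 necessarily lay above the median of all genes under either scaling. With quantile normalization 12 of the 35 did. The 95% interval of the difference lay within a 2-fold change either way for 31 of 35 genes, and Acot1, Acot2, Angptl4 and Ppargc1a were the 4 whose intervals were wider. With the mouse as a block the interval lay within that range for 34 of 35, and Acot2 was the 1 that was wider, at -1.01 to 0.06.

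**Figure D1:**
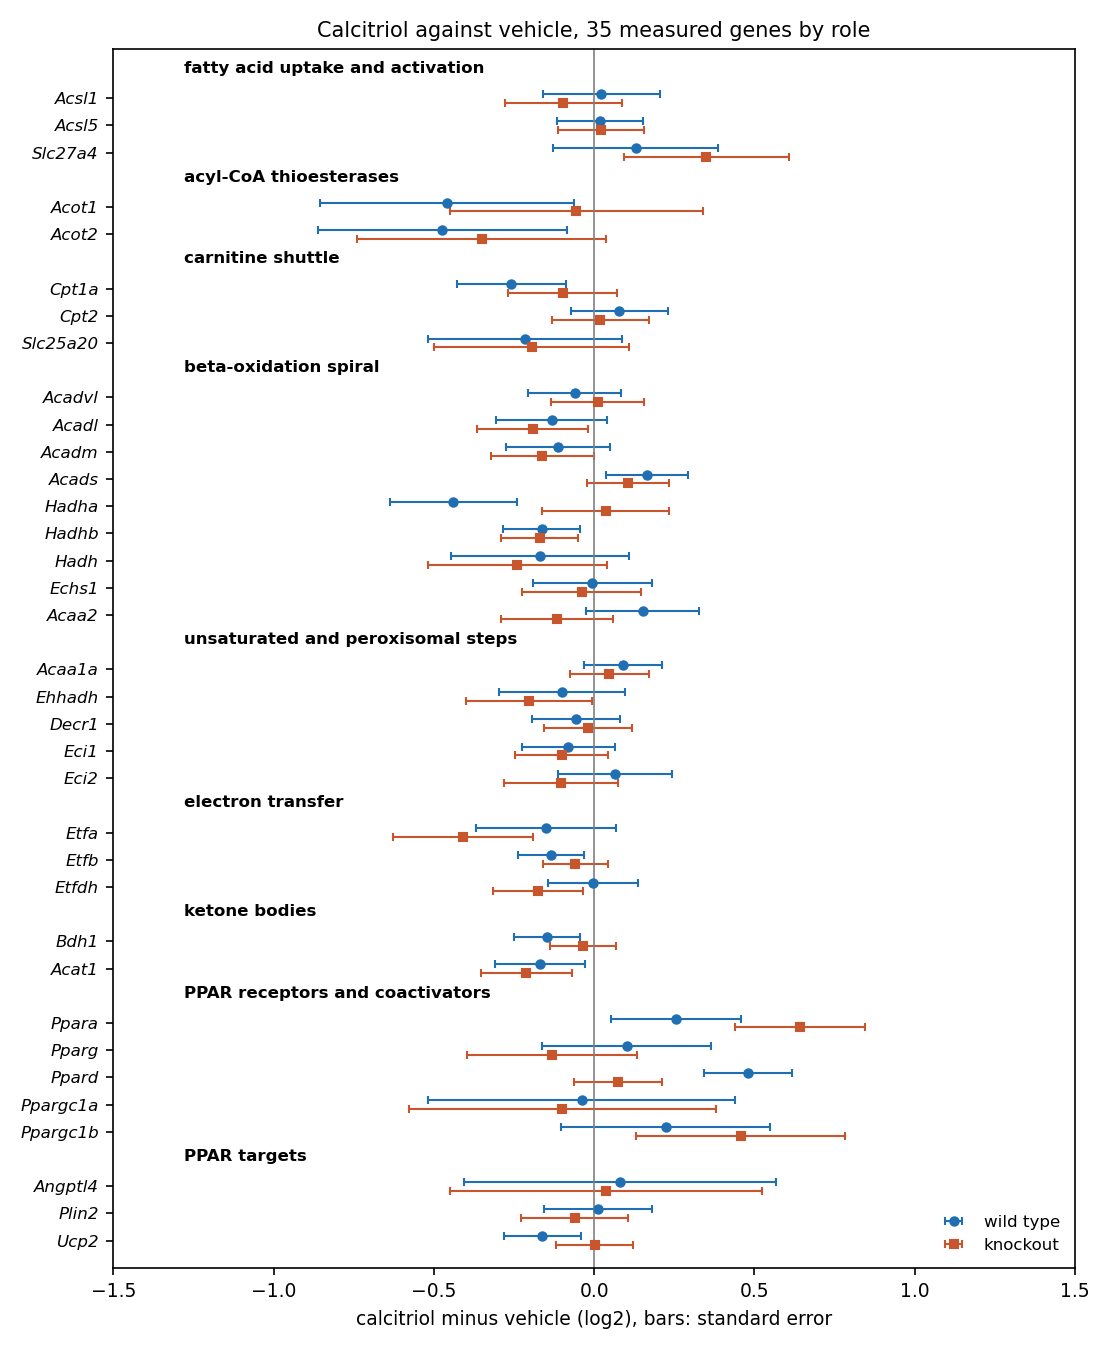
Difference between calcitriol and vehicle (x axis, log2) for the 35 measured genes, in wild type (blue circles) and knockout (orange squares), with bars of 1 standard error from limma, ordered by role. Ppard stands at 0.48 in wild type and 0.08 in knockout, and Ppara at 0.26 and 0.64. The remaining genes lie between -0.47 and 0.46.

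Ppard, the receptor of the family found in most tissues, had the smallest p of the 35. Its level was 3.58, 3.43 and 3.22 in vehicle and 3.98, 3.90 and 3.80 with calcitriol in wild-type mice 1, 2 and 3. Each of the 3 calcitriol arrays was above each of the 3 vehicle arrays. In knockout mice it was 3.59, 3.29 and 3.14 in vehicle and 3.47, 3.36 and 3.42 with calcitriol. These knockout groups overlapped, and mouse 1 went the other way from mice 2 and 3. The wild-type difference was 0.48 ± 0.14 (SE, n = 3 against 3), a 1.4-fold higher level, with a 95% interval of 0.18 to 0.78 and limma adjusted p = 0.604. With the mouse as a block the interval was 0.27 to 0.69 and the limma adjusted p 0.0722, so it missed the threshold in both fits. Calcitriol minus vehicle within a mouse was 0.40, 0.46 and 0.58 in the 3 wild-type mice, against -0.13, 0.08 and 0.28 in the 3 knockout mice.

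The blocked call of Ppard turned on how the arrays were scaled. Taking the 75th percentile over spots instead of over probes gave a blocked adjusted p of 0.0468 by limma. An earlier run used spots, and the main setting was changed to probes after the data were seen. Leaving out knockout mouse 3 gave 0.0241, and leaving out wild-type mouse 1, 2 or 3 gave 0.285, 0.409 and 0.291. The difference itself ranged from 0.39 to 0.56 when single arrays were left out. It was 0.58 with the slide as a block and 0.67 on the largest slide alone. That slide held all wild-type calcitriol arrays but only the wild-type vehicle array of mouse 3, the lowest of its group for Ppard. The value of 0.67 is therefore not paired by mouse and rests on that vehicle array. The effect was 0.41 larger in wild type than in knockout (SE 0.20), which did not pass limma's test of the difference (adjusted p = 1.0, and 0.532 with the block).

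**Figure D2:**
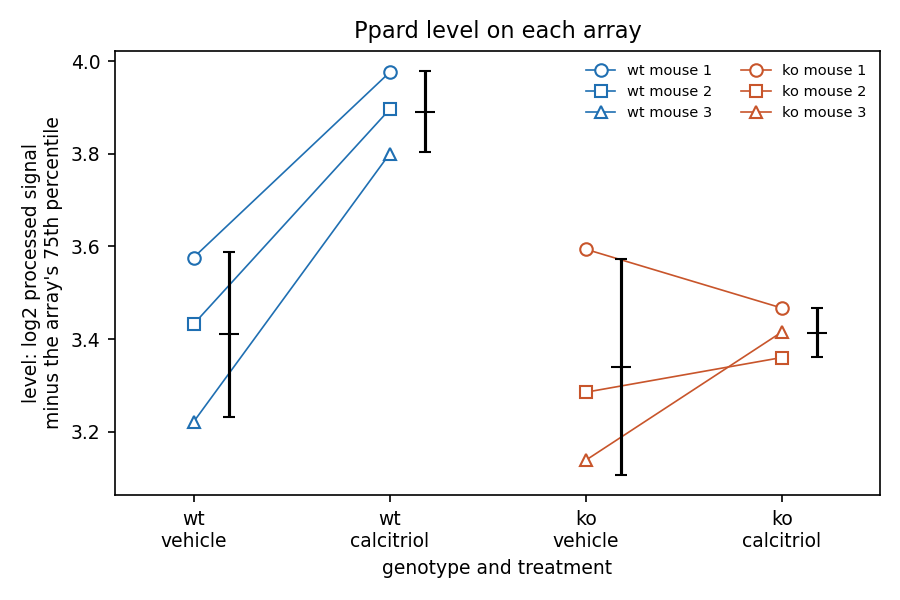
Level of Ppard on each array (y axis, log2 signal relative to the array's 75th percentile) by genotype and treatment, with lines joining the arrays of 1 mouse and black bars for mean and SD (n = 3). The 3 wild-type calcitriol arrays lie between 3.80 and 3.98 and the other 9 arrays between 3.14 and 3.59.

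The other members of the PPAR group were read by the same rule. Ppara, the receptor known to drive fatty acid burning in liver, lay at -0.94, -0.72 and -0.43 in wild-type mice 1, 2 and 3 on vehicle and -0.48, -0.42 and -0.43 on calcitriol, and at -1.39, -0.99 and -0.96 in knockout mice 1, 2 and 3 on vehicle and -0.25, -0.34 and -0.82 on calcitriol. The knockout groups did not overlap, all 3 calcitriol arrays being higher, while the wild-type groups did. The difference was 0.64 ± 0.20 in knockout and 0.26 ± 0.20 in wild type (SE), with limma adjusted p = 0.864 and 0.996. Ppara has 3 probes above background on every array, and they disagreed: for the other two the differences were -0.09 and -0.06 in knockout and -0.08 and -0.60 in wild type. The wild-type value also moved with the slide, to -0.05 with the slide as a block and -0.01 on the largest slide.

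Pparg, the receptor known best from fat cells and also high in colon epithelium, lay at 5.15, 4.63 and 4.81 in wild-type mice 1, 2 and 3 on vehicle and 5.07, 4.84 and 4.99 on calcitriol, and at 5.32, 4.70 and 5.39 in knockout mice 1, 2 and 3 on vehicle and 4.98, 4.45 and 5.59 on calcitriol. Mouse 2 of either genotype was the lowest in each group, and the groups overlapped. The wild-type difference was 0.10 ± 0.26 (SE), and 0.42 with the slide as a block. Ppargc1a, a coactivator that raises mitochondrial gene expression, lay at 0.50, -0.72 and -0.64 in wild-type mice 1, 2 and 3 on vehicle and 0.22, -0.48 and -0.71 on calcitriol, and at 0.77, -0.74 and -0.48 in knockout mice 1, 2 and 3 on vehicle and 0.56, -0.88 and -0.43 on calcitriol. Mouse 1 was high in every group and the groups overlapped, with a wild-type difference of -0.04 ± 0.48 (SE). Its other probe differed by -0.29 in wild type and 0.06 in knockout, where the first differed by -0.10. The related coactivator Ppargc1b lay at -2.12, -1.88 and -0.91 in wild-type mice 1, 2 and 3 on vehicle and -1.33, -1.77 and -1.14 on calcitriol, and at -2.10, -1.88 and -1.40 in knockout mice 1, 2 and 3 on vehicle and -1.02, -1.30 and -1.68 on calcitriol. The groups overlapped here too. Its wild-type difference of 0.22 ± 0.33 (SE) became -0.31 with the slide as a block and -0.50 on the largest slide.

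The PPAR targets lay close to 0 difference. Angptl4, a secreted inhibitor of lipoprotein lipase, lay at 0.00, 1.00 and 0.45 in wild-type mice 1, 2 and 3 on vehicle and 0.13, 1.15 and 0.42 on calcitriol, and at -0.44, 1.26 and -0.18 in knockout mice 1, 2 and 3 on vehicle and -0.28, 1.15 and -0.12 on calcitriol. Mouse 2 was the highest in all 4 groups, and vehicle and calcitriol overlapped in both genotypes. The difference within a mouse was 0.13, 0.15 and -0.03 in wild type and 0.16, -0.11 and 0.06 in knockout, smaller than the spread between mice. With the slide as a block the knockout difference of 0.04 became 0.52. That fit takes the knockout vehicle level from mouse 3 alone. The smallest slide held only the knockout vehicle arrays of mice 1 and 2. Plin2, which coats lipid droplets, lay at 4.88, 5.21 and 4.89 in wild-type mice 1, 2 and 3 on vehicle and 4.80, 5.23 and 4.99 on calcitriol, and at 5.06, 5.18 and 4.64 in knockout mice 1, 2 and 3 on vehicle and 4.94, 5.04 and 4.73 on calcitriol. All groups overlapped, and the wild-type difference was 0.01 ± 0.17 (SE). The knockout difference of -0.06 became 0.27 with the slide as a block and 0.34 on the largest slide. Both values compare different mice, as the largest slide held knockout calcitriol arrays of mice 1 and 2 and the vehicle array of mouse 3. Within a mouse the knockout difference was -0.115, -0.149 and 0.081.

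Pdk4, the kinase that shuts off pyruvate oxidation, lay at -7.33, -3.89 and -5.38 in wild-type mice 1, 2 and 3 on vehicle and -6.75, -5.73 and -7.14 on calcitriol, and at -6.28, -6.11 and -5.22 in knockout mice 1, 2 and 3 on vehicle and -6.42, -5.80 and -5.39 on calcitriol. It was above background on 1 wild-type vehicle array and 1 knockout vehicle array, and not well above background on any calcitriol array, so no fold is given. Cd36, a fatty acid uptake receptor, was not well above background on any of the 12 arrays, between -8.03 and -4.43. Ucp2, a mitochondrial inner membrane carrier, differed by -0.16 ± 0.12 in wild type and 0.00 ± 0.12 in knockout (SE). Its wild-type groups did not overlap, with all 3 calcitriol arrays lower.

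The carnitine shuttle moves acyl groups into mitochondria, and Cpt1a is its regulated entry step. Cpt1a lay at 3.17, 3.30 and 3.06 in wild-type mice 1, 2 and 3 on vehicle and 2.69, 2.97 and 3.10 on calcitriol, and at 3.24, 3.34 and 3.10 in knockout mice 1, 2 and 3 on vehicle and 2.90, 2.98 and 3.51 on calcitriol. In both genotypes mice 1 and 2 were lower with calcitriol and mouse 3 was higher, so the groups overlapped. The wild-type difference of -0.26 ± 0.17 (SE, limma adjusted p = 0.991) became -0.01 with the slide as a block and -0.14 on the largest slide. Slc25a20, the carrier for acylcarnitine, differed by -0.22 ± 0.30 in wild type, and Cpt2, which returns the acyl group to CoA, by 0.08 ± 0.15 (SE). The other Cpt2 probe went the opposite way in wild type, at -0.14.

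Of the 9 genes of the mitochondrial cycle, 7 lay below 0 with calcitriol in wild type and 6 in knockout, and none was called. Hadha, a subunit of the trifunctional protein for long chains, lay at 2.55, 2.56 and 2.25 in wild-type mice 1, 2 and 3 on vehicle and 1.93, 2.05 and 2.05 on calcitriol, and at 2.57, 2.35 and 1.82 in knockout mice 1, 2 and 3 on vehicle and 2.21, 2.06 and 2.58 on calcitriol. The wild-type groups did not overlap, all 3 calcitriol arrays being lower, and the knockout groups did. The wild-type difference was -0.44 ± 0.20 (SE, limma adjusted p = 0.988), and -0.19 with the slide as a block. Its partner subunit Hadhb differed by -0.16 ± 0.12 in wild type and -0.17 ± 0.12 in knockout (SE), its groups overlapping. The acyl-CoA dehydrogenases take chains from very long to short: Acadvl differed by -0.06, Acadl by -0.13, Acadm by -0.11 and Acads by 0.16 in wild type. Acads, the short-chain enzyme, was higher with calcitriol in all 3 mice of each genotype, by 0.07 to 0.31 in wild type and 0.08 to 0.13 in knockout, and stayed far from a call (limma adjusted p = 0.995 and 1.0). Echs1, Hadh and Acaa2, the hydratase, dehydrogenase and thiolase, differed by -0.01, -0.17 and 0.15 in wild type.

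The enzymes for unsaturated chains and the peroxisomal route stayed near 0. Eci1, Eci2, Decr1, Ehhadh and Acaa1a differed by -0.10 to 0.09 in wild type and by -0.20 to 0.05 in knockout. Etfa, Etfb and Etfdh pass the electrons of the first step to the respiratory chain, and all 3 lay at or below 0 in both genotypes. Etfa lay at 5.51, 4.80 and 5.05 in wild-type mice 1, 2 and 3 on vehicle and 4.96, 4.80 and 5.15 on calcitriol, and at 5.41, 5.42 and 5.79 in knockout mice 1, 2 and 3 on vehicle and 5.04, 4.79 and 5.56 on calcitriol. Its knockout arrays were lower with calcitriol in all 3 mice, although the groups overlapped. The knockout difference of -0.41 ± 0.22 (SE, limma adjusted p = 0.864) was -0.79 with the slide as a block. That fit takes the knockout vehicle level from mouse 3 alone, because the other knockout vehicle arrays had a slide to themselves.

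Ketone body enzymes were represented by Bdh1 and Acat1. Bdh1, which interconverts acetoacetate and beta-hydroxybutyrate, lay at 5.40, 5.37 and 5.37 in wild-type mice 1, 2 and 3 on vehicle and 5.26, 5.14 and 5.30 on calcitriol, and at 5.46, 5.27 and 5.31 in knockout mice 1, 2 and 3 on vehicle and 5.27, 5.20 and 5.46 on calcitriol. The wild-type groups did not overlap, the calcitriol arrays being lower, with a difference of -0.15 that was -0.07 with the slide as a block. These values are from the brightest Bdh1 probe. Its other probes, also above background on every array, differed by -0.05 and -0.08 in wild type, with overlapping groups. Acat1, the mitochondrial acetoacetyl-CoA thiolase, lay at 2.42, 2.24 and 2.39 in wild-type mice 1, 2 and 3 on vehicle and 2.13, 2.01 and 2.40 on calcitriol, and at 2.58, 2.37 and 2.60 in knockout mice 1, 2 and 3 on vehicle and 2.23, 2.21 and 2.49 on calcitriol. Its groups overlapped, and the differences were -0.17 ± 0.14 in wild type and -0.21 ± 0.14 in knockout (SE). Bdh1 had the smallest spread of the 35 within groups, 0.09 (SD), and its 95% interval in wild type was -0.37 to 0.08.

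Uptake and activation genes differed little in wild type. The acyl-CoA synthetases Acsl1 and Acsl5 both differed by 0.02, and the transporter Slc27a4 by 0.13. The other Acsl1 probe differed by -0.18 in wild type, and between genotypes in vehicle the probes stood at 0.16 and -0.16. The thioesterases Acot1 and Acot2, which release free fatty acids from CoA, differed by -0.46 ± 0.40 and -0.47 ± 0.39 in wild type (SE). They are near-identical copies, and probes may read both. Acot1 lay at 0.21, 0.70 and 0.92 in wild-type mice 1, 2 and 3 on vehicle and -0.01, -0.07 and 0.53 on calcitriol, and at 0.52, 0.80 and 1.74 in knockout mice 1, 2 and 3 on vehicle and 0.27, 0.79 and 1.83 on calcitriol. Within each genotype its groups overlapped, although each wild-type mouse was lower with calcitriol. The wild-type difference was -0.18 with the slide as a block and -0.77 on the largest slide.

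Counted over the list, the wild-type vehicle and calcitriol arrays did not overlap for 4 of the 35, where they did not overlap for 9.21% of all genes. Ppard was the 1 that was higher, and Hadha, Bdh1 and Ucp2 were lower. For Bdh1 this held on its brightest probe only.

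In the knockout the same comparison asks what calcitriol does without its receptor. None of 35 was called without the block or with it, and 0.0% of all genes were called in either fit. In limma the unadjusted p was under 0.05 for 1 of the 35, Ppara, and for 1363 of 24245 genes without the block, and for 3 of the 35 and 1966 genes with it. The median difference of the 35 was -0.06, with 12 above 0 and 23 below (3 and 32 when scaled to the array median, which moved the median of all genes to -0.26), and 30 of 35 were within 0.25 of 0. Groups did not overlap for 1 of 35, Ppara, against 7.52% of all genes. The calcitriol effect was tested for a difference between genotypes and called for 0 of 35, against 0.0289% of all genes without the block and 0.235% with it, with unadjusted p under 0.05 for 0 and 1 of the 35 in limma, beside 3.37% and 7.86% of all genes. For 9 of the 35 its 95% interval reached beyond a 2-fold change without the block, among them Hadha, Ppara and Pparg, and for 4 with it.

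Knockout against wild type asks what loss of the receptor does to these genes, first in vehicle. None of 35 was called against 0.00412% of all genes, and with the replicate number as a block again 0 of 35 against 0.00412%. The unadjusted p was under 0.05 for 0 of the 35 in limma without the block and for 6 with it, beside 8.65% and 14.6% of all genes. This comparison shares the wild-type vehicle arrays with that of calcitriol in wild type. The median difference was 0.08, with 24 genes above 0 and 11 below, beside -0.05 for all genes. Scaling to the array median put all 35 above 0 and moved the median of all genes to 0.73. With arrays matched by quantiles the median was 0.02, with 19 above 0 and 16 below. Groups did not overlap for 2 of 35, against 8.41% of all genes. These were Hadhb, higher in knockout by 0.10 ± 0.12, and Ppara, which was lower, at -0.42 ± 0.20 (SE). The other Ppara probes differed by 0.06 and -0.64.

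Etfa, whose levels are given above, was 0.42 ± 0.22 higher in knockout vehicle (SE, limma adjusted p = 0.616), with overlapping groups, and 0.92 higher with the slide as a block. In vehicle, slide and genotype are partly confounded. The knockout vehicle arrays of mice 1 and 2 had a slide to themselves, so 0.92 takes the knockout level from mouse 3 alone. Eci2, an isomerase for unsaturated chains, lay at 4.28, 3.84 and 3.94 in wild-type mice 1, 2 and 3 on vehicle and 4.28, 4.03 and 3.95 on calcitriol, and at 4.60, 3.96 and 4.30 in knockout mice 1, 2 and 3 on vehicle and 4.33, 4.04 and 4.19 on calcitriol. Each knockout vehicle array was above the wild-type array of the same number, although the groups overlapped. The difference was 0.27 ± 0.18 (SE, limma adjusted p = 0.683, and 0.318 with the block). Acat1, whose levels are also given above, differed by 0.17 ± 0.14 (SE, limma adjusted p = 0.755), with overlapping groups.

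Under calcitriol, 0 of 35 were called against 0.206% of all genes, and with the block 0 of 35 against 0.503%. The unadjusted p was under 0.05 for 1 of the 35 in limma without the block and for 2 with it, beside 2.99% and 8.39% of all genes. The median difference was 0.07, with 26 above 0 and 9 below, and groups did not overlap for 2 of 35, against 7.61% of all genes. Ppard was lower in knockout, with a difference of -0.48 ± 0.14 (SE, 95% interval -0.78 to -0.17, limma adjusted p = 0.662, and 0.111 with the block). This comparison and that of calcitriol in wild type share the wild-type calcitriol arrays, so the values of Ppard are not independent. Leaving out replicate 3 gave a blocked adjusted p of 0.0211 by limma, and leaving out replicate 1 or 2 gave 0.559 and 0.453. The other gene without overlap was Hadha, 0.27 ± 0.20 higher in knockout (SE).

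Acot1 had the largest difference between genotypes under calcitriol, 0.82 ± 0.40 higher in knockout (SE). Its groups overlapped, and with the block the limma adjusted p was 0.249. On the largest slide alone the difference was 0.38.

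**Figure D3:**
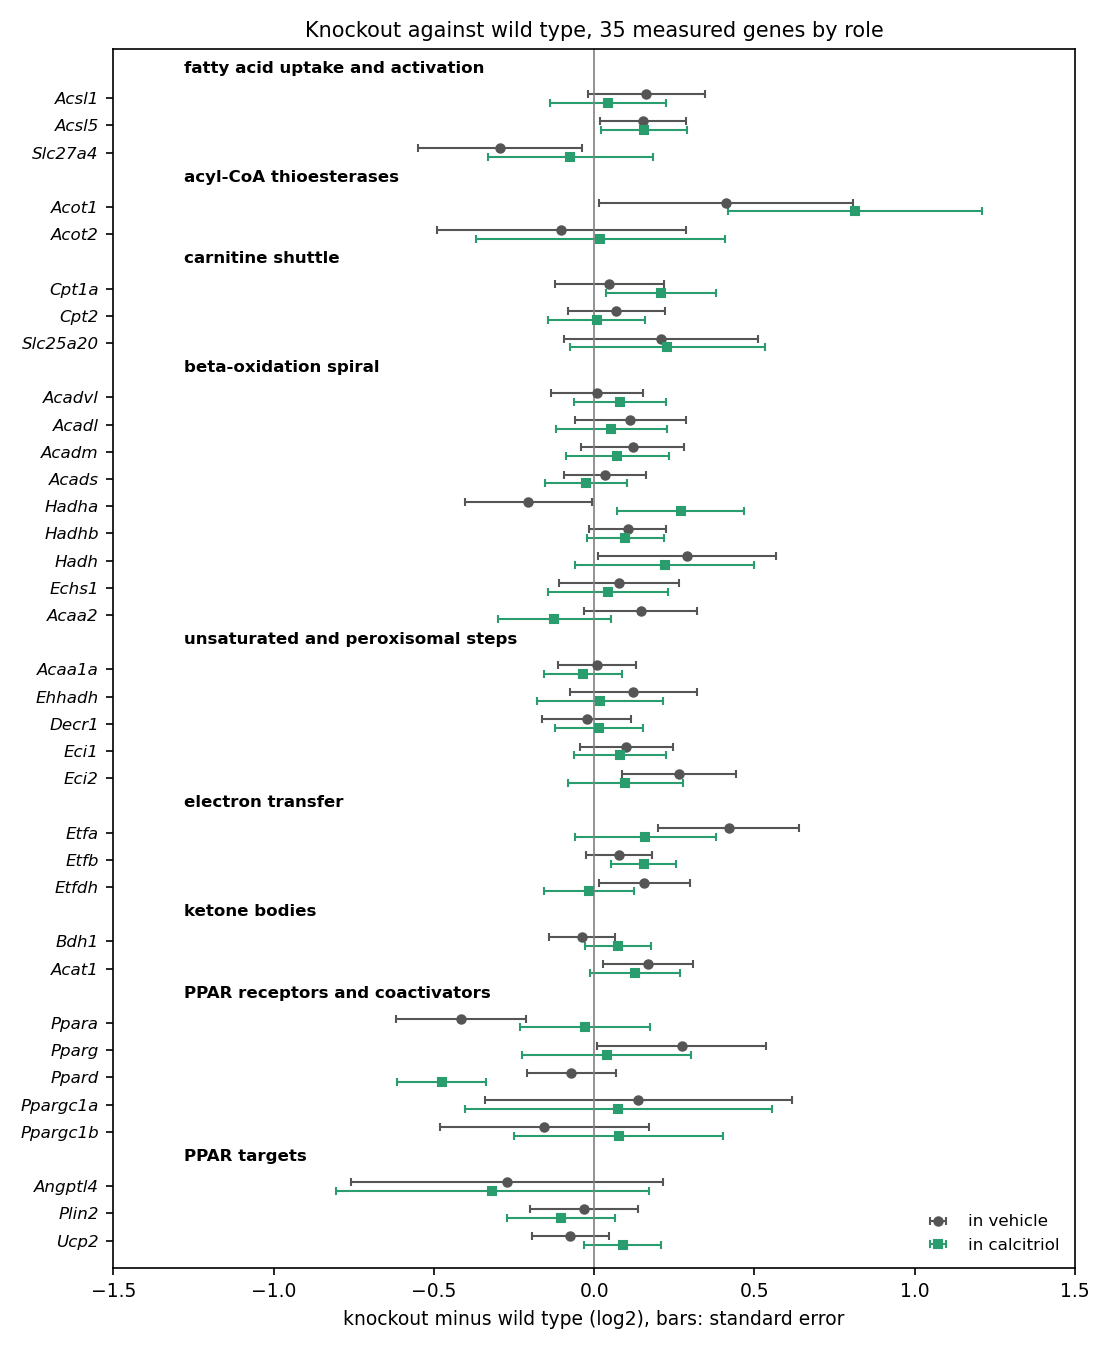
Difference between knockout and wild type (x axis, log2) for the 35 measured genes in vehicle (grey circles) and in calcitriol (green squares), with bars of 1 standard error from limma, ordered by role. Ppard lies at -0.07 in vehicle and -0.48 in calcitriol, Acot1 at 0.41 and 0.82, and none of the 35 passed the test.

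For several members the arrays divided by mouse number rather than by treatment or genotype, and these values are a description without a test. Ppargc1a lay between 0.22 and 0.77 on the 4 arrays of number 1 and between -0.88 and -0.43 on the other 8. The other genes apart for number 1 were Slc25a20 and Acsl1, both higher, and Acot2, lower. This makes 4 of 35 members, or 11.4%, where 12.8% of all genes were apart for number 1. Angptl4 lay between 1.00 and 1.26 on the arrays of number 2 and between -0.44 and 0.45 on the others. Acadvl, Echs1 and Decr1 were lower there, with mean differences of -0.26, -0.40 and -0.26, so that 4 of 35 members, or 11.4%, were apart for number 2, against 5.56% of all genes. Cpt2 and Acadvl were higher on the arrays of number 3, 2 of 35 members or 5.71%, against 3.29% of all genes. These counts read the brightest probe of each gene. On the other probe of Acsl1, Decr1 and Cpt2 the arrays of that number overlapped the rest. The other Ppargc1a probe was also apart for number 1. The 4 arrays of a number come from 1 wild-type and 1 knockout mouse. Number 2 is the only one labelled 3 months and the only one with Ddx3y. Age, sex, the mice themselves and anything else that same-numbered cultures shared cannot be told apart.

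**Figure D4:**
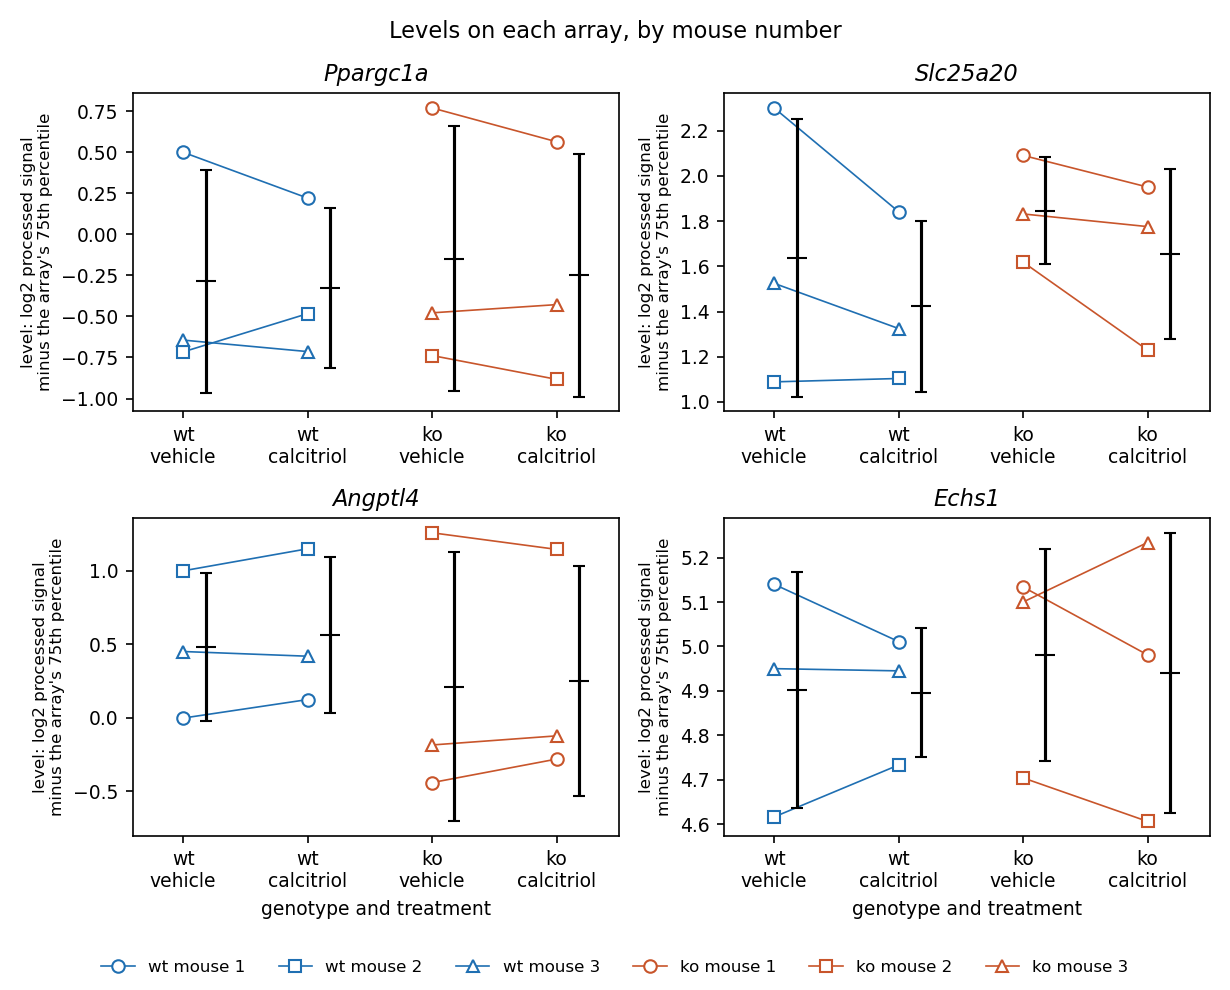
Levels (y axis, log2 signal relative to the array's 75th percentile) of Ppargc1a, Slc25a20, Angptl4 and Echs1 by genotype and treatment, with lines joining the arrays of 1 mouse and black bars for mean and SD (n = 3). Circles (mouse 1) are the highest points of Ppargc1a and Slc25a20, squares (mouse 2) are the highest of Angptl4 and the lowest of Echs1, in both genotypes.

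Other genes of the same pathways were read from 2 lists. Of 36 further genes of fatty acid oxidation and ketone metabolism 35 were tested, and 0 were called without the block in any comparison. With the mouse as a block Acacb, the acetyl-CoA carboxylase whose product inhibits Cpt1, rose with calcitriol in wild type by 0.82 (limma adjusted p = 0.0114 with the block, 0.988 without). Its level was 0.06, 0.06 and 0.70 in vehicle and 0.81, 0.85 and 1.62 with calcitriol, and these groups did not overlap. The blocked call was lost on leaving out any 1 of the 3 wild-type mice (adjusted p 0.0879 to 0.124). The difference was 0.40 on the largest slide and 0.46 as the mean over probes. Its knockout levels were -0.01, 0.21 and 1.15 in vehicle and 0.02, -0.10 and 1.07 with calcitriol.

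Oxct1, which starts ketone body use, differed by -0.27 with calcitriol in wild type and Mlycd, which removes malonyl-CoA, by 0.45, both uncalled (limma adjusted p = 0.988). The thioesterase Acot3 differed by -1.25 between the genotypes in vehicle (limma adjusted p = 0.568).

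Of 40 further PPAR targets, partners and lipid droplet genes 34 were tested. Mgll, which splits monoacylglycerol, was the 1 called without the block. It was lower in knockout under calcitriol, with a log2 difference of -4.35 (limma adjusted p = 0.0199, and 0.0119 with the block). It was above background on all 3 wild-type calcitriol arrays, at -0.81, -0.80 and -2.48. On 0 of 3 knockout calcitriol arrays was it above background, at -5.27, -6.14 and -5.71. With a floor on the knockout arrays, wild type was 17.4-fold higher on the main scale. For that fold each knockout array counted at its own signal or, if higher, at the dimmest signal of any probe above background there. The difference was smaller with normexp, at -1.90. The fold thus depends on how background is handled, and 17.4 is not a lower bound. The call was lost with the slide as a block (adjusted p = 0.111), with the mean over probes (0.123), on the largest slide (0.128), without wild-type calcitriol array 1 or 2 (0.138 and 0.159), and without knockout calcitriol array 1, 2 or 3 (0.0667, 0.118 and 0.097). With replicate 1 left out the blocked call was lost as well (0.082). Mgll was above background on 1 of the 3 wild-type vehicle arrays, at -3.65, and not on the other two, so the size of its difference from vehicle rests on dim signals. As fitted, that difference was 3.60 (adjusted p = 0.0855, and 0.0509 with the block). It passed limma's test when scaled to the array median (adjusted p = 7.98e-05), with quantile normalization (0.00256), with normexp (0.00459) and without wild-type vehicle array 2 (0.0406). It also passed with the block on leaving out knockout mouse 1 or 3 (0.0348 and 0.0285). Creb3l3, a liver and gut transcription factor that works with Ppara, rose with calcitriol in wild type by 0.72 in the blocked fit (limma adjusted p = 0.0425, 0.991 without the block). It was higher in all 3 mice, although the groups overlapped. Leaving out any 1 of the wild-type mice, or knockout mouse 1 or 2, ended that call (adjusted p 0.0686 to 0.280), and the difference was 1.11 with the slide as a block. Cyp4a10, a fatty acid hydroxylase, differed by 1.35 with calcitriol in knockout (limma adjusted p = 0.864).

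Markers of cell state were read beside these comparisons. The summed signal of crypt stem cell markers was 74.3 to 79.6 times the array's 75th percentile in the vehicle arrays of wild type and 61.3 to 62.7 in their calcitriol arrays, over 5 of 6 markers. Their single differences were mixed, 2 above 0 and 3 below, from -0.99 to 0.38, and Ascl2 was called lower with the block (limma adjusted p = 0.0348). Without the block no stem cell marker was called (smallest limma adjusted p = 0.165). Of 10 absorptive colonocyte markers 9 were tested, 5 above 0 and 4 below, from -1.13 to 1.33, with 0 called in either limma fit and unadjusted p under 0.05 for 2 without the block and 5 with it. All 7 goblet cell markers lay above 0 with calcitriol in wild type, at a median of 0.51, and Tff3 and Spink4 were called with the block, by limma adjusted p = 0.0114 and 0.0159. With the block 0.936% of all genes were called. Without it no goblet cell marker was called (smallest limma adjusted p = 0.988). In knockout 3 lay above 0 and 4 below, at a median of -0.03. With the slide as a block, which in part compares different mice, the medians were 0.67 in wild type and 0.83 in knockout. The summed signal of the 35 members was 574 to 662 on the vehicle arrays of wild type and 565 to 629 on the calcitriol arrays, so it overlapped. The part of cell make-up in the values of Ppard, Acacb and Creb3l3 was not tested.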

How the data were processed

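The authors deposited 1 text file per array, extracted with Agilent Feature Extraction 11.5.1.1. Per the file headers the deposited columns used are intensity per spot, linear, with background and spatial trend removed within the array and nothing scaled between arrays. The labels name no statistical method.

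Control spots and outlier flags were left out, spots of a probe were averaged, and log2 processed intensity minus the array's 75th percentile over probes was tested. Of 55681 probes 28026 had a symbol, through accessions in the RefSeq table, which is on GRCm38.p6, and the array's own annotation is on mm9. A probe was kept where some group had it well above background on each of its 3 arrays, and the brightest stood for each gene. Other probes are given for Ppara, Ppargc1a, Cpt2, Acsl1 and Bdh1, and for Bdh1, Decr1 and Etfb small differences also varied in sign between probes. limma 3.58.1 in R 4.3.3 was run with 4 group means on 12 arrays and a variance trend, with p-values adjusted by Benjamini-Hochberg over 24245 genes. For calcitriol in wild type only, the fits without a block and with the mouse as a block were tried on simulated data. No P value was adjusted over a list alone, and no list was tested as a set.

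Numbers pair the samples: the vehicle and calcitriol arrays of a number are 1 animal, and their deviations from the group means correlated at 0.10 to 0.59. Between genotypes same-numbered arrays correlated at 0.14 to 0.64, and the number was the block there. Without the block, arrays that share a mouse were fitted as if separate.

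The members and lists were chosen with earlier results of these data known. All members are named. Values by array are given for the 4 with the smallest p under calcitriol in wild type and the 4 between genotypes in vehicle, and for 10 set genes (Cpt1a, Bdh1, Pdk4, Angptl4, Plin2, Ppara, Ppard, Pparg, Ppargc1a and Ppargc1b). Those of Acot1 were added after its values were seen. Of each further list, called genes and up to 4 others by smallest p are named. 1 result of these lists is not reported here.

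The alternatives were scaling to the array median, quantile normalization, normexp (offset 50) on the median signal, since the files hold no mean signal, no filter, the mean over probes, no trend, 2 groups alone, the replicate block, the slide as a block, the largest slide alone, and each array left out. Of 3 slides the smallest held 2 arrays, the middle 3 and the largest 7, among them all from calcitriol-treated wild type. The smallest held only the knockout vehicle arrays of mice 1 and 2. The middle held the wild-type vehicle arrays of mice 1 and 2 and the knockout calcitriol array of mouse 3. In each genotype the only vehicle array on the largest slide was that of mouse 3. Slide is thus partly confounded with treatment and, in vehicle, with genotype, and the slide fits in part compare different mice.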

Additional observations from a re-analysis of the deposited data

How the results depend on the processing

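Over 65 results of 13 genes given by array, 0 called values reversed, and 133 of 1547 values under 24 alternatives changed the sign of an uncalled difference. Of those 1547 values only 1 crossed the threshold, Ppard with calcitriol in wild type. It was called at adjusted p = 0.0468 by limma with the replicate block and the percentile over spots. An earlier run used spots, and the main setting was changed to probes after the data were seen. With spots and the block, 1 of 35 members was called. With the replicate block the count of members called in wild type ranged from 0 to 1 on leaving out single mice and that between genotypes under calcitriol from 0 to 1. With the percentile over probes and all arrays kept, the block changed no call among the members. Scaling to the array median moved the median of all genes to 0.48 for calcitriol in wild type, -0.26 in knockout, 0.74 for the difference of effects and 0.73 between genotypes in vehicle. The members' medians moved with it, to 0.45, -0.35, 0.84 and 0.86. For the difference of effects the members' median was 0.14 with the slide as a block, 0.092 on the largest slide, and -0.087 to 0.095 on leaving out single arrays. Between genotypes in vehicle it was 0.024 with quantile normalization, 0.019 with normexp, 0.045 with the mean over probes, 0.17 with the slide as a block, and 0.041 to 0.115 on leaving out single arrays. The cause was not tested. Medians of the other comparisons moved by less than the spread between replicates under the other alternatives. The number of arrays, and signal near background for Cd36 and Pdk4, limit the precision.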
